A study of Mus musculus with 8 samples.

Results

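Mitochondrial DNA is copied by its own replisome from deoxynucleotides that are made or salvaged by a separate set of enzymes, and 10 genes of that machinery were followed in hearts that lack Lrpprc. The genes were taken by name and role. They were Polg, Polg2, Twnk and Ssbp1 of the replication fork, Top1mt and Mgme1, which act on the topology and the ends of the DNA, and Rrm2b, Tk2, Dguok and Tymp, which make, salvage or degrade nucleosides and nucleotides. All 10 were found among the 50599 records of each library, and all 10 were among the 19959 records that received an adjusted p.

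Total RNA of whole hearts, depleted of cytoplasmic rRNA, was sequenced from 8 adult C57BL/6N males of the same age. Of these, 4 were labelled wildtype and 4 Lrpprc knockout. Lrpprc encodes an RNA-binding protein of mitochondria that keeps mitochondrial mRNAs stable. By the study's description the controls carried loxP sites on both copies of Lrpprc and no Cre, and the knockouts carried the same alleles with a Cre that deletes the gene in heart and skeletal muscle. No library of a Cre-positive animal without loxP sites was analysed here, so effects of Cre and of the loss of Lrpprc cannot be told apart. Other cells of the heart need not lose the gene, and whole-heart RNA holds all of them.

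The replication fork of mitochondrial DNA is small. Twinkle, the helicase made from Twnk, opens the duplex, the catalytic subunit POLG with its accessory subunit POLG2 copies it, and the single-stranded DNA-binding protein SSBP1 covers the displaced strand. In tissues whose cells no longer divide, such as the heart, the supply of deoxynucleotides rests on salvage inside mitochondria and on the ribonucleotide reductase subunit made from Rrm2b. Inherited loss of many of these proteins in people causes depletion or deletions of mitochondrial DNA.

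Of the 10 genes, Mgme1, Twnk and Dguok were lower in the knockout, Tk2 was higher, and the other 6 did not pass the test. Mgme1 fell most, to 0.498 of the wildtype level (95% interval 0.402 to 0.615). Twnk fell to 0.643 (0.519 to 0.797) and Dguok to 0.666 (0.542 to 0.818), while Tk2 rose 1.35-fold (1.11 to 1.63). The polymerase subunits Polg and Polg2 and the strand-binding Ssbp1 did not pass. The test was that of DESeq2 over all genes with a Benjamini-Hochberg adjusted p under 0.05, and the values behind each call are given below.

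The 3 lower genes of 10 stand beside 15.5% of all tested genes that were called lower. The 1 higher gene stands beside 18.2% called higher. In both directions together 33.7% of all tested genes were called, so that 4 calls among 10 genes are near the background, and the median log2 fold change was -0.17 over the 10 genes and 0.0050 over all genes tested. The quasi-likelihood test of edgeR called the same 3 genes lower and the same gene higher, beside 19.6% and 20.1% of the genes it tested. The normalised counts of the groups did not overlap for these 4 genes, as was true of 33.0% of all tested genes (16.4% with the knockout below and 16.7% with it above). In bulk tissue, fewer cells of a type and less RNA per cell cannot be told apart, and this holds for every change below.

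Before the values of each gene, the promoter sequences of the genes are shown, because the 3 genes that fell and the gene that rose can be compared there. RefSeq promoters (GRCm38.p6) were at hand for 8 of the 10 genes, as 300 bases from 250 before to 50 after the start, and not for Rrm2b or Top1mt. Each line below gives 70 bases, 5′ to 3′ on the strand of the gene, from position -60 to position 10 around the start. Capitals mark a match to 1 of 2 motifs, CCGGAAG of ETS factors such as GABPA or TGACGTCA of CREB, on either strand. Mgme1 (chr2:144270844-144270913, plus strand), Twnk (chr19:45005603-45005672, plus strand) and Dguok (chr6:83506960-83507029, minus strand) fell, and Tk2 (chr8:104248549-104248618, minus strand) rose. Polg (chr7:79466264-79466333, minus strand), Polg2 (chr11:106779528-106779597, minus strand) and Ssbp1 (chr6:40471408-40471477, plus strand) did not pass the test.
Mgme1: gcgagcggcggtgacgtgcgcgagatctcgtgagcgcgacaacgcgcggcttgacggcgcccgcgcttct
Twnk: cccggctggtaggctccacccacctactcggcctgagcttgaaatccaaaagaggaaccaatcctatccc
Dguok: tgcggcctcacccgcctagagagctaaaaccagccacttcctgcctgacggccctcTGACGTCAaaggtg
Tk2: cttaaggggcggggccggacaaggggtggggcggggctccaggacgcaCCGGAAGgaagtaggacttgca
Polg: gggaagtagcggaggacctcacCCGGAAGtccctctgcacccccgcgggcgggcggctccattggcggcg
Polg2: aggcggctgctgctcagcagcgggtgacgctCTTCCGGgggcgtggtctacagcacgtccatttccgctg
Ssbp1: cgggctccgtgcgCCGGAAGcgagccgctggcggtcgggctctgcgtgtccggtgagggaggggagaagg

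The ETS motif began at position -38 in Polg, -29 in Polg2, -47 in Ssbp1 and -12 in Tk2. It was found in 8.91% of the 32544 RefSeq promoters of the same length. The CREB motif began at position -4 in Dguok and was found in 1.8% of all promoters. Neither motif was found in the promoters of Mgme1, Twnk or Tymp. The NRF1 consensus, TGATGNAA of ATF4 with C/EBP and CACGTG of an E-box were found in none of the 8 promoters, against 4.63%, 3.91% and 7.17% of all. A match is a string of letters in this window and not a bound site, and the genes with the ETS motif include 3 that did not pass the test and 1 that rose.

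The total expected count, the number of reads that RSEM assigns to genes, was 35218541 to 47743376 per library. The targeted gene was reduced, since Lrpprc had 3665 ± 216 normalised counts in the wildtype and 577 ± 48.6 in the knockout (SD, n = 4 in each). Mitochondrial rRNA took 44.0% to 46.9% of the counts in the wildtype and 65.6% to 67.8% in the knockout, which makes the scaling of the libraries matter for every gene here. Of the markers of the heart's cells, 6 of 8 cardiomyocyte genes were lower and 1, Mybpc3, was higher (1.51-fold), beside 15.5% lower and 18.2% higher of all tested genes. The summed normalised count of the 8, of which Ttn was the largest part, was 2319480 to 2527970 in the wildtype and 1414550 to 1765700 in the knockout. Of the macrophage markers 5 of 6 were higher by DESeq2 and 3 by edgeR (summed 2656 to 3460 against 3054 to 7139), as were 2 of 6 fibroblast markers (11956 to 12466 against 12643 to 24162) and 3 of 10 proliferation markers (774 to 1096 against 716 to 2383). Of the atrial markers 2 of 4 were lower (9980.2 to 12038 against 1268 to 6012), and none of the 6 endothelial markers (13579 to 14646 against 9476 to 16753) or of the 5 erythroid and platelet markers (13978 to 18167 against 10171 to 37922) was called by DESeq2 or edgeR. Knockout replicate 3 had the lowest knockout sum of the macrophage, fibroblast, proliferation, endothelial and atrial markers and the highest of the erythroid and platelet markers. Without it the same calls were made among the 10 genes, with log2 fold changes of -0.93 for Mgme1, -0.64 for Twnk, -0.52 for Dguok and 0.44 for Tk2. The part of these shifts in the results for the 10 genes was not tested.

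**Figure D1:**
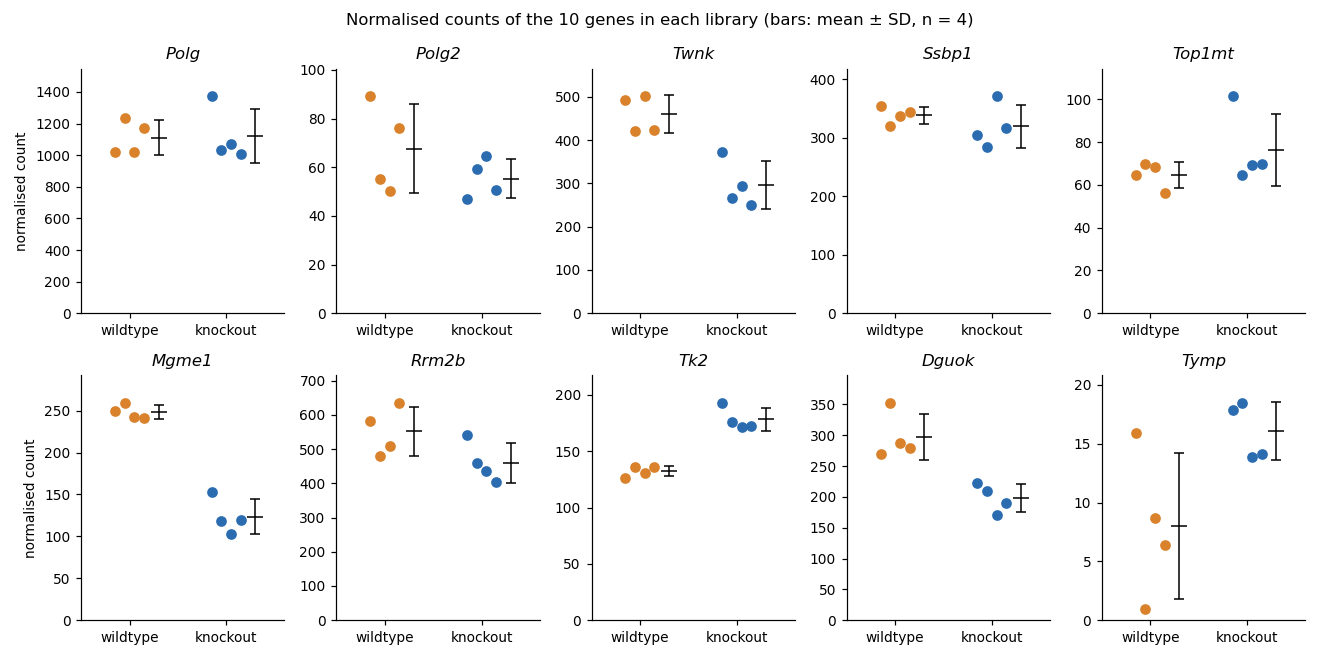
Normalised count (vertical axis, from 0, a separate scale for each gene) of the 10 genes in the 4 wildtype (orange) and 4 knockout (blue) libraries, replicates 1 to 4 from left to right, with the mean and SD of each group as a bar. The groups are apart for Twnk, Mgme1, Dguok and Tk2 and overlap for the other 6 genes.

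Polg (ENSMUSG00000039176.17, chromosome 7 from 79446231 to 79466362, minus strand, GRCm38) encodes the catalytic subunit of the replicative polymerase of mitochondrial DNA. With libraries in the order of their replicate numbers, here and below, its normalised counts were 1019.5, 1235, 1018 and 1170.5 in the wildtype and 1376, 1030.2, 1072 and 1006 in the knockout. The groups overlapped, and knockout replicate 1 was the highest of the 8. DESeq2 gave a log2 fold change of 0.013 (SE 0.136, adjusted p = 0.957), and the 95% interval of the ratio of knockout to wildtype ran from 0.839 to 1.21.

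This value of Polg rested on its effective length, which is the mean number of positions from which a fragment of the gene's transcripts could come, as RSEM estimated it from the mix of transcripts in each library. The files hold 18 transcripts of Polg, from 149 to 7837 bases long. Its effective length was 3253, 2888, 3576 and 2913 bases in the wildtype and 2537, 2876, 2391 and 2854 bases in the knockout. Each knockout length was below each wildtype length, with means of 3157 ± 325 and 2665 ± 239 bases (SD, n = 4), a difference of -15.6% (exact permutation test, two-sided, p = 0.0286, the smallest that 4 against 4 allows and not adjusted for the 10 genes examined). Among 9641 genes of several transcripts the groups' lengths did not overlap in 9.18%, and the knockout was the shorter in 5.08%. The other 9 genes had overlapping lengths.

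The expected counts of Polg, before any correction, were 1084, 1275, 1450.0 and 1466 in the wildtype and 1083, 888, 769 and 1056 in the knockout. Without the length correction its log2 fold change was -0.23 (DESeq2, adjusted p = 0.096), still not past the threshold. Of the 10 genes, Rrm2b was the one whose call changed with this choice, as described with the nucleotide genes. Whether the shorter length reflects a true change of Polg transcripts was not tested.

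**Figure D2:**
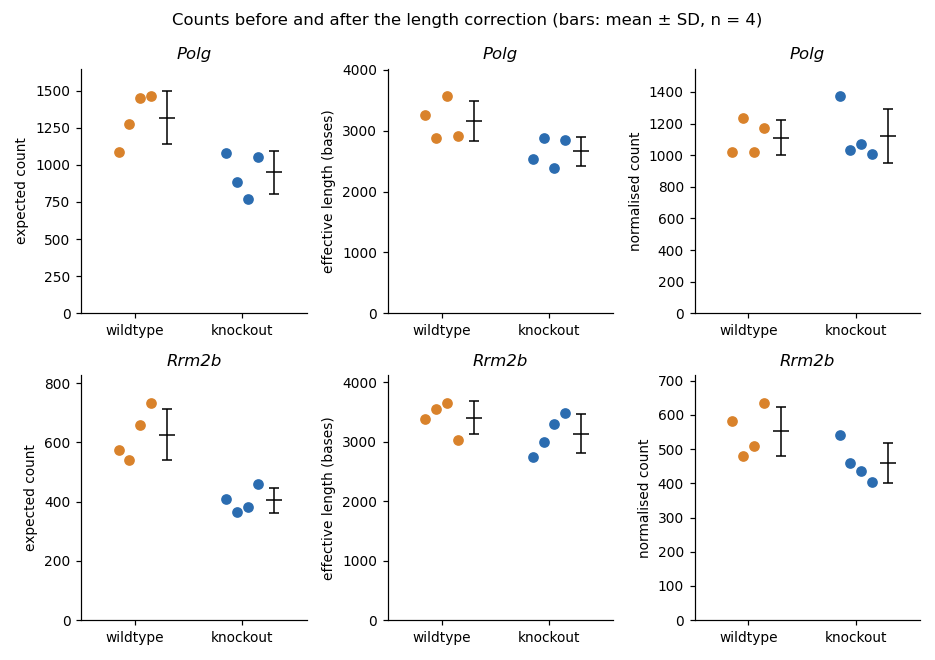
Expected count, effective length in bases and normalised count (vertical axes, from 0) of Polg and Rrm2b in each library, wildtype in orange and knockout in blue, with the mean and SD of each group as a bar. The effective length of Polg is lower in all 4 knockout libraries, and that of Rrm2b overlaps between the groups.

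Polg2 (ENSMUSG00000020718.12, chromosome 11 from 106768253 to 106779537, minus strand) encodes the accessory subunit that holds the polymerase on its template. Its normalised counts were 89.4, 55.2, 50.1 and 76.0 in the wildtype and 46.9, 59.5, 64.5 and 50.6 in the knockout. The wildtype libraries spread more widely than the difference between the group means, 67.7 ± 18.3 and 55.4 ± 8.06 (SD, n = 4). The fitted log2 change was -0.29 (SE 0.265, DESeq2 adjusted p = 0.44), and the interval of the ratio, 0.572 to 1.17, is wider than that of the other fork genes. Wildtype replicate 1 was the highest of the 8, and without it the log2 change was -0.13.

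Twnk (ENSMUSG00000025209.4, chromosome 19 from 45005663 to 45012762, plus strand) encodes the helicase. Its normalised counts were 494, 420.1, 503 and 425 in the wildtype and 374, 267, 295 and 249 in the knockout. Every knockout library was below every wildtype library, and knockout replicate 1 came nearest to them. The group means were 460.2 ± 43.9 and 296 ± 55.1 (SD, n = 4), and the fitted log2 change was -0.64 (SE 0.158, adjusted p = 0.000343 by DESeq2 and 0.00396 by edgeR). Scaled by total counts without mitochondrial rRNA, Twnk was not called (-0.21, DESeq2 adjusted p = 0.265). The files hold 1 transcript of Twnk, so its effective length was nearly constant.

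Ssbp1 (ENSMUSG00000029911.14, chromosome 6 from 40471352 to 40484700, plus strand), the strand-binding protein, had normalised counts of 353, 319, 336 and 344 in the wildtype and 304, 285, 371 and 317 in the knockout. The highest and the lowest of the 8 were both knockout libraries. DESeq2 gave a log2 fold change of -0.084 (SE 0.126, adjusted p = 0.659), with an interval of the ratio from 0.796 to 1.12. A processed pseudogene of Ssbp1 with 97.8% identity over 447 bases, Gm12115, which was named after its values were seen, was listed at 0 counts in every library.

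The balance within the fork was followed as the ratio of partners in the same library, which hardly depends on how libraries are scaled. The ratio of Twnk to Polg was 0.485, 0.341, 0.494 and 0.363 in the wildtype and 0.272, 0.260, 0.276 and 0.248 in the knockout. All knockout ratios were below all wildtype ratios, and they were close to each other. The mean log2 ratio differed by -0.65, which is 0.636 of the wildtype ratio (exact permutation test over 70 assignments, two-sided, p = 0.0286, the smallest possible, and 0.1 after Benjamini-Hochberg adjustment over 7 ratios). The adjusted p was thus above the threshold of 0.05, but a larger difference in this ratio alone could not have lowered it. With the length correction of Polg left out the log2 difference was -0.41. The ratios of Polg2 to Polg and of Ssbp1 to Polg overlapped between the groups, with log2 differences of -0.26 (exact p = 0.429, adjusted 0.5) and -0.096 (exact p = 0.6, adjusted 0.6). The first of these differences was -0.079 without wildtype replicate 1, -0.087 without knockout replicate 1 and -0.083 without the length correction, and the other turned to 0.027 without knockout replicate 1 and to 0.13 without the length correction.

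Top1mt (ENSMUSG00000000934.8, chromosome 15 from 75657035 to 75678800, minus strand) encodes the mitochondrial type I topoisomerase, which relaxes supercoils. Its normalised counts were 64.6, 69.7, 68.5 and 56.3 in the wildtype and 102, 64.7, 69.2 and 69.6 in the knockout. The groups overlapped apart from knockout replicate 1, which stood above the other 7. The fitted log2 change was 0.24 (SE 0.227, DESeq2 adjusted p = 0.462), and without that library it was 0.070. Top1, which encodes the nuclear enzyme, went from 941 ± 59.2 to 723 ± 79.5 normalised counts (log2 fold change -0.38, DESeq2 adjusted p = 0.00367), and the ratio of Top1mt to Top1 differed by 0.60 on the log2 scale (exact permutation p = 0.0571, adjusted 0.133), with groups that overlapped.

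Mgme1 (ENSMUSG00000027424.11, chromosome 2 from 144270663 to 144281227, plus strand) encodes a single-strand exonuclease that trims the DNA ends left by replication and takes part in the breakdown of linear mitochondrial DNA. Its normalised counts were 249, 259.5, 242 and 241 in the wildtype and 153, 119, 103 and 119 in the knockout. The wildtype libraries were close together and every knockout library lay far below them. The group means were 248 ± 8.47 and 123 ± 21.0 (SD, n = 4), and the fitted log2 change was -1.01 (SE 0.156, adjusted p = 2.05e-09 by DESeq2 and 0.00031 by edgeR). It was the largest change among the 10 genes apart from that of Tymp, which was measured on few reads.

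Mgme1 starts head to head with Snx5, which encodes a sorting nexin on the other strand, and the start of Snx5 lies 243 bases inside Mgme1 as GENCODE annotates it. The RefSeq start of Mgme1 used for the promoter above lies further downstream, close to that of Snx5. Snx5 had 848 ± 58.2 normalised counts in the wildtype and 1206 ± 240.5 in the knockout (SD, n = 4), a log2 rise of 0.51 (adjusted p = 0.00474 by DESeq2 and 0.019 by edgeR). The neighbours thus moved in opposite directions, and Snx5, like Mrpl43 and outside the rule for named genes, was named after its values were seen. They share 206 exon bases on opposite strands, and the counting was set to the strand. Twnk in the same way starts 779 bases from Mrpl43, which encodes a protein of the mitochondrial ribosome, and Mrpl43 was not called (408 ± 14.9 against 464 ± 80.5, log2 fold change 0.19, DESeq2 adjusted p = 0.341).

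Rrm2b (ENSMUSG00000022292.15, chromosome 15 from 37923952 to 37961318, minus strand) encodes the small subunit of ribonucleotide reductase that is used outside S phase. Its normalised counts were 583, 479, 509.5 and 636 in the wildtype and 541, 459, 435 and 405 in the knockout. The group means were 552 ± 70.8 and 459.8 ± 58.2 (SD, n = 4) and the groups overlapped through knockout replicate 1. DESeq2 gave a log2 fold change of -0.27 (SE 0.143, adjusted p = 0.146), and the interval of the ratio ended just above no change, at 1.01.

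The call on Rrm2b depended on choices. DESeq2 gave -0.35 when knockout replicate 1 was left out (adjusted p = 0.0431) and -0.38 when the length correction was left out (adjusted p = 0.000277), both past the threshold. Without the length correction 17.3% of all tested genes were called lower. Its expected counts before correction were 573, 540.3, 659 and 734 in the wildtype and 409, 366, 383 and 461 in the knockout, which do not overlap. The effective lengths were 3401 ± 277 and 3131 ± 328 bases (SD, n = 4) over 8 transcripts and overlapped. Stretches of Rrm2b transcripts match other annotated transcripts at 95% identity or more, over 202 bases in Nedd4 (8515 to 13462 expected counts, named after its values were seen) and over 1051 and 379 bases in records with no symbol here, so reads may have been divided and the level of Rrm2b is uncertain to that extent. The ratio of Rrm2b to Rrm1, the large subunit with which it pairs, was 1.69, 1.14, 1.51 and 1.58 in the wildtype and 1.28, 0.990, 1.35 and 0.875 in the knockout (log2 difference -0.41, exact permutation p = 0.114, adjusted 0.2), and Rrm1 itself was not called (log2 fold change 0.15, DESeq2 adjusted p = 0.493).

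The salvage kinases of the matrix moved in opposite directions. Tk2 (ENSMUSG00000035824.7, chromosome 8 from 104226685 to 104248558, minus strand), the kinase for thymidine and deoxycytidine, had normalised counts of 127, 136, 131 and 136 in the wildtype and 193, 176, 172 and 172 in the knockout. Every knockout library was above every wildtype library, and the spread within each group was small, with means of 132 ± 4.43 and 178 ± 10.1 (SD, n = 4). The fitted log2 change was 0.43 (SE 0.140, adjusted p = 0.00901 by DESeq2 and 0.0192 by edgeR). Scaled by total counts, Tk2 was not called (0.13, DESeq2 adjusted p = 0.501).

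Dguok (ENSMUSG00000014554.13, chromosome 6 from 83480217 to 83506969, minus strand), the kinase for deoxyguanosine and deoxyadenosine, had normalised counts of 269.9, 353, 288 and 279 in the wildtype and 222, 209.8, 171 and 189.7 in the knockout. The groups did not overlap, and wildtype replicate 2 was the highest. The means were 297 ± 37.7 and 198 ± 22.4 (SD, n = 4), and the log2 difference from the fit was -0.59 (SE 0.151, adjusted p = 0.000629 by DESeq2 and 0.00516 by edgeR). As with Twnk, total counts without mitochondrial rRNA ended the call (-0.16, DESeq2 adjusted p = 0.456).

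The ratio of Dguok to Tk2, the purine against the pyrimidine kinase, was 2.12, 2.59, 2.19 and 2.05 in the wildtype and 1.15, 1.19, 0.996 and 1.10 in the knockout. The lowest wildtype ratio was well above the highest knockout ratio. The mean log2 ratio differed by -1.01, which is 0.497 of the wildtype ratio (exact permutation test, two-sided, p = 0.0286, the smallest possible). After adjustment over the 7 ratios the exact p was 0.1, above the threshold. As with Twnk to Polg, a larger difference in this ratio alone could not have lowered that value. Because both genes are read in the same library, the ratio does not depend on the scaling of the libraries, beyond the pseudocount. It is a ratio of normalised counts and not of molecules, since the genes differ in length.

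Tymp (ENSMUSG00000022615.7, chromosome 15 from 89371931 to 89377039, minus strand) encodes thymidine phosphorylase, the cytosolic enzyme that breaks thymidine down. It was the least expressed of the 10, with normalised counts of 15.9, 0.968, 8.68 and 6.43 in the wildtype and 17.9, 18.5, 13.8 and 14.1 in the knockout. The groups overlapped through wildtype replicate 1, and wildtype replicate 2 was under the 3 counts taken as the floor. DESeq2 gave a log2 fold change of 1.02 (SE 0.609, adjusted p = 0.197), which was 0.66 without wildtype replicate 2 and 1.56 without wildtype replicate 1. Tymp shares 856 exon bases on the same strand with Sco2, which encodes a copper chaperone of cytochrome oxidase and had 179 ± 17.9 and 225 ± 61.6 normalised counts (SD, n = 4), so reads may have been divided between them and the level of Tymp is uncertain. The ratio of Tymp to Tk2 overlapped between the groups (log2 difference 0.85, exact permutation p = 0.286, adjusted 0.4), and that difference was 0.23 without wildtype replicate 2 and 1.29 without wildtype replicate 1.

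**Figure D3:**
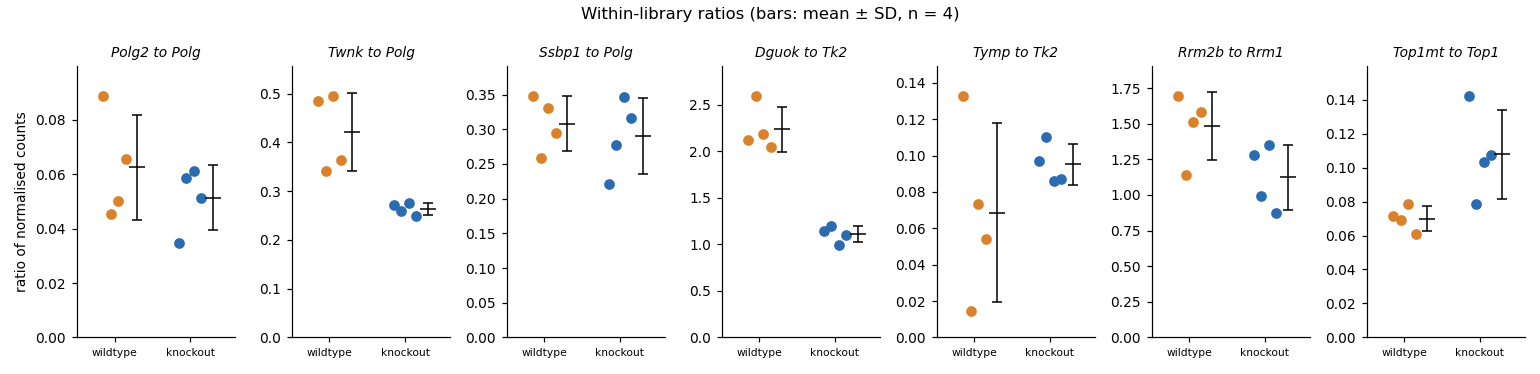
Ratio of normalised counts (vertical axis, from 0) for the 7 pairs of genes in each library, wildtype in orange and knockout in blue, with the mean and SD of each group as a bar. The groups are apart for Twnk to Polg and for Dguok to Tk2, and overlap for the other 5 pairs.

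Per kilobase of effective length, a scale on which genes can be compared, the wildtype normalised counts were highest for Polg (384 ± 37.9) and Ssbp1 (358 ± 15.2), followed by Dguok (298 ± 37.8), Rrm2b (169.7 ± 21.8) and Twnk (139 ± 13.2), all SD with n = 4. Mgme1 (111 ± 3.81), Tk2 (73.5 ± 2.46), Polg2 (41.2 ± 11.1), Top1mt (37.3 ± 3.50) and Tymp (4.27 ± 3.30) were lower. The ranges of Polg and Ssbp1, of Ssbp1 and Dguok, of Rrm2b and Twnk, and of Polg2 and Top1mt overlapped, so the order within these pairs is not fixed by the data. In the knockout Tk2 (99.1 ± 5.60) stood above Twnk (89.2 ± 16.6) and Mgme1 (55.5 ± 9.46), whereas in the wildtype it stood below both. The knockout ranges of Tk2 and Twnk overlapped, and Twnk was the higher in knockout replicate 1 (113 against 107), so their order in the knockout is not fixed either. The order by the deposited TPM was the same in each group.

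Calls depended on the scaling of the libraries, while Mgme1, Twnk, Dguok and Tk2 each kept the sign of their change under the 3 scalings compared. DESeq2 size factors left the median of 15754 expressed genes near 0 (0.019 on the log2 scale). Scaling by total counts moved that median by -0.30, and scaling by total counts without mitochondrial rRNA moved it by 0.43. A scaling shifts all genes by about the same amount, so by construction the changes relative to the median gene were nearly the same under the 3 scalings, at -1.03, -1.02 and -1.02 for Mgme1, -0.65, -0.66 and -0.66 for Twnk, -0.60 in each for Dguok and 0.41 in each for Tk2.

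Taken against no change rather than against the median gene, Mgme1 was called lower under all 3 scalings (-1.01, -1.30 and -0.58). Tk2 lost its call under total counts, where Rrm2b and Ssbp1 were called lower. Twnk and Dguok lost theirs under total counts without mitochondrial rRNA, where Polg, Ssbp1, Top1mt and Tymp were called higher along with Tk2. Under these scalings 29.6% and 5.43% of all tested genes were called lower and 9.64% and 38.9% higher, so the members' counts of 5 lower and 0 higher, and of 1 lower and 5 higher, moved with those of all genes.

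**Figure D4:**
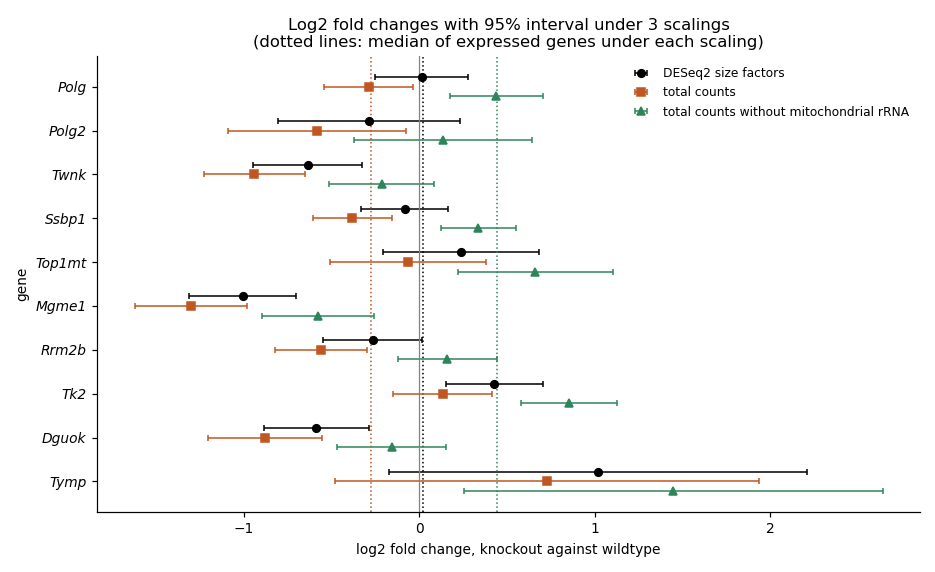
Log2 fold change of knockout against wildtype (horizontal axis) with its 95% interval for the 10 genes under DESeq2 size factors (black circles), total counts (orange squares) and total counts without mitochondrial rRNA (green triangles), with the median of expressed genes under each scaling as a dotted line. Each gene keeps nearly the same distance from the dotted line of its scaling, by construction, and Mgme1 lies below 0 under all 3.

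Knockout replicate 1 had the highest knockout value of Polg, Twnk, Top1mt, Mgme1, Rrm2b, Tk2 and Dguok. The summed normalised count of the 10 genes was 3155 to 3369 in the wildtype and 2592 to 3328 in the knockout, the highest of these in that library. Without it the 4 calls stood, at -1.12 for Mgme1, -0.77 for Twnk, -0.64 for Dguok and 0.39 for Tk2. The highest adjusted p over the 8 fits that each leave out 1 library was 1.92e-06 for Mgme1, 0.00529 for Twnk, 0.00871 for Dguok and 0.0463 for Tk2 (DESeq2), so that Tk2 is the call nearest to the threshold.

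Around the 10 genes, 25 further genes of mitochondrial DNA replication, packaging and repair were tested, and 5 were higher and 3 lower, with a median log2 fold change of 0.19. Over all tested genes 18.2% were higher and 15.5% lower, so under this scaling these counts are near the background. With total counts without mitochondrial rRNA 16 were higher and 1 lower, beside 38.9% and 5.43% of all genes. The mitochondrial protease Lonp1, which also binds mitochondrial DNA, rose from 2091 ± 24.9 to 7966 ± 809.6 normalised counts (SD, n = 4), a 3.81-fold rise (DESeq2, adjusted p = 5e-87). Apex1, an endonuclease of base excision repair, rose 1.84-fold and Atad3a, a membrane ATPase associated with nucleoids, rose 1.54-fold (adjusted p = 3.92e-09 and 0.00104). Ung, the uracil-DNA glycosylase that opens base excision repair, fell from 252 ± 21.2 to 66.1 ± 40.4, or to 0.261 of the wildtype (adjusted p = 1.74e-06), and the mitochondrial nuclease Endog fell to 0.618 (adjusted p = 9.56e-06). Counts are per gene, so any nuclear and mitochondrial forms of a repair enzyme were not told apart. Polrmt, the mitochondrial RNA polymerase that also makes replication primers, was the last of the 3 lower genes (544 ± 126 against 362 ± 47.9, adjusted p = 0.00745), with groups that overlapped, and it was named after its values were seen. The 7S RNA record of the mitochondrial genome, likewise named afterwards, had 48.1 ± 10.4 and 50.0 ± 2.66 normalised counts (adjusted p = 0.897).

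Of 16 further genes of mitochondrial nucleotide supply, 4 were higher and 5 lower, with a median of -0.20, beside 18.2% higher and 15.5% lower over all tested genes. This balance turned with the scaling, with 1 higher and 8 lower under total counts and 9 higher and 2 lower under total counts without mitochondrial rRNA. Mpv17, an inner membrane protein whose loss causes depletion of mitochondrial DNA, had 853, 859.5, 819.8 and 832 normalised counts in the wildtype and 323, 316, 283 and 277 in the knockout. Its groups were far apart and it fell to 0.356 of the wildtype level (DESeq2, adjusted p = 2.77e-46). Abat, a transaminase that also takes part in mitochondrial nucleoside metabolism, fell to 0.324 (adjusted p = 8.05e-08). Cmpk2, the mitochondrial kinase for UMP and CMP, fell to 0.587 by DESeq2 (adjusted p = 0.0313), with overlapping groups and an adjusted p of 0.0503 by edgeR. Slc25a33, a carrier of pyrimidine nucleotides, rose 1.79-fold and Fbxl4, an F-box protein needed to keep mitochondrial DNA, rose 1.58-fold (DESeq2, adjusted p = 0.00151 and 5.38e-05).

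A list for deoxynucleotide synthesis and salvage outside mitochondria held 24 genes, of which 23 were tested. Of these 9 were higher and 3 lower, with a median of 0.44, beside the same 18.2% and 15.5% over all tested genes. Here too the counts are per gene, so any mitochondrial form of a listed enzyme was not told apart. The balance moved with the scaling, to 6 higher and 6 lower under total counts and to 15 higher and 1 lower without mitochondrial rRNA in the totals. Upp1, uridine phosphorylase, rose from 39.0 ± 7.25 to 189 ± 36.1 normalised counts (SD, n = 4), a 4.83-fold rise (DESeq2, adjusted p = 4.65e-21). The nucleoside diphosphate kinase Nme1 rose 3.05-fold, and the nucleotidases Nt5c and Nt5e rose 2.24-fold and 2.08-fold (adjusted p = 1.04e-17, 2.32e-06 and 8.1e-07). Dut, the enzyme that removes dUTP, fell to 0.517 (adjusted p = 2.37e-06). The S-phase enzymes, named after their values were seen, did not pass, with 18.2 ± 6.33 and 32.0 ± 10.2 normalised counts of Rrm2 (adjusted p = 0.0796) and 17.8 ± 5.30 and 41.5 ± 34.1 of Tk1 (adjusted p = 0.157), which are the S-phase counterparts of Rrm2b and Tk2. Knockout replicate 3 had the lowest Tk1 of the 8 libraries, 3.79, and replicate 2 the highest, 75.6. Markers of macrophages and of proliferation moved as given above, and their part in the changes of this list was not tested.

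**Figure D5:**
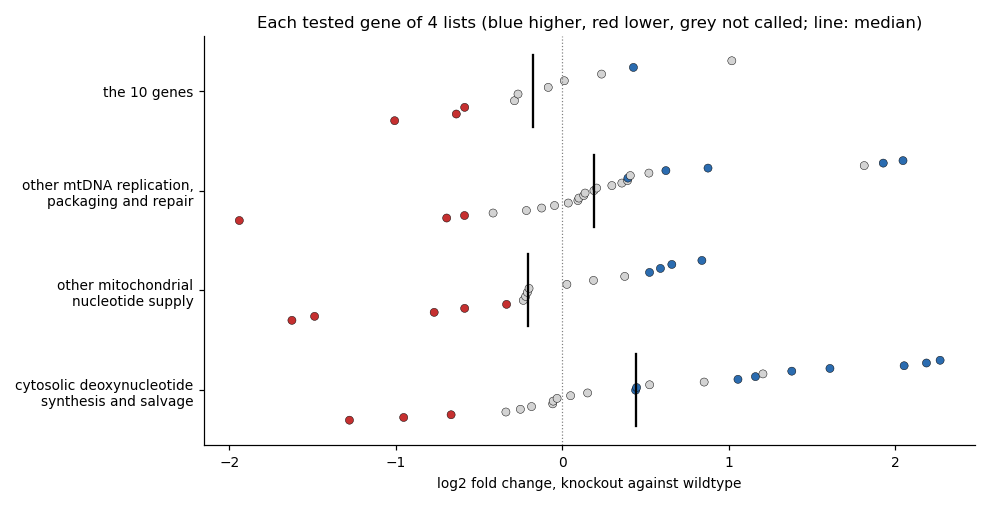
Log2 fold change of knockout against wildtype (horizontal axis) of each tested gene of 4 lists, blue where called higher, red where called lower and grey where not called, with the median of each list as a black line. The medians lie at -0.17 for the 10 genes, 0.19 and -0.20 for the other mitochondrial lists and 0.44 for the cytosolic list, and each list holds calls in both directions.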

How the data were processed

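RNA from whole hearts was measured in 8 libraries of total RNA, made with random hexamer primers after depletion of cytoplasmic rRNA. Samples were grouped by their titles. The authors made the expected counts, TPM values and effective lengths with RSEM 1.2.31 and Bowtie2 on the mm10 mouse genome, as reverse-stranded reads against GENCODE M13 transcripts with their own mitochondrial sequences, and RSEM divides reads that match several genes. The deposited TPM values are scaled to a constant sum per library, and the deposited effective lengths are other values, in bases. A table of the authors' own comparison was not used. A table of normalised counts has 8 columns that match no sample label, and they were left out.

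The expected counts, rounded to whole numbers, were fitted with DESeq2 1.42.0 in R 4.3.3, with genotype as the only term, effective lengths as an offset, no shrinkage and a Benjamini-Hochberg threshold of 0.05. Normalised counts are divided by size factor and relative effective length. edgeR 4.0.16 was the alternative, and both adjusted p values are given for each call among the 10 genes. Both tests were also run on data simulated from the wildtype means and the dispersions of the DESeq2 fit. Ratios took log2 of normalised counts plus a pseudocount of 1 and an exact permutation test over 70 assignments. GENCODE M21 supplied symbols and GRCm38 coordinates and matched 50339 of 50563 identifiers. Depth was 35218541 to 47743376 counts per library, and a count of 3 was taken as the floor, which covers counting error only. Within each group every pair of libraries differed beyond sampling noise (chi-square per degree of freedom of 4.65 or more).

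The 10 genes and the gene lists were chosen with earlier results of these data known. The genes named were the 10 genes, Lrpprc, the denominators of the ratios and, in each of 3 pathway lists, the 5 largest changes past the threshold among genes that averaged 50 normalised counts or more, any gene whose exons overlap those of the 10 on the same strand (Sco2) and markers of a list that moved with a result, beside those stated to have been named later. The alternatives were edgeR, leaving out the length offset, a filter to genes reaching 10 counts in 4 libraries, 3 other scalings, a replicate block and leaving out each library.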

Additional observations from a re-analysis of the deposited data

Results flagged for a closer look

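The normalised count of Top1mt in knockout replicate 1 was 101.6, while the other knockout libraries lay between 64.7 and 69.6. It was marked because the gap to the nearest of the others was 0.868 of the whole range of the group, above Dixon's limit for 4 samples. Among 48 groups of 4 examined, 1 was marked, and chance marks about 1 in 20 groups, or 2.4 of 48. The log2 fold change of Top1mt was 0.24 with this library and 0.070 without it.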

How the results depend on the processing

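Mgme1 was called lower under every alternative run. With edgeR, without the length offset, with only genes of enough counts and with size factors from nuclear genes, Twnk, Dguok and Tk2 kept their calls too. Total counts gave 5 members lower and 0 higher, 3 higher and 4 lower genes of replication and repair, 1 higher and 8 lower of mitochondrial supply, and 6 higher and 6 lower of the cytosolic list, beside 9.64% higher and 29.6% lower of all genes. Total counts without mitochondrial rRNA gave 1 member lower and 5 higher, 16 higher and 1 lower of replication and repair, 9 higher and 2 lower of mitochondrial supply, and 15 higher and 1 lower of the cytosolic list, beside 38.9% higher and 5.43% lower of all genes. Polg, which was not called, changed sign to -0.0078 by edgeR, -0.23 without the length offset and -0.29 under total counts, and ranged from -0.099 to 0.067 with 1 library left out. Under total counts Top1mt changed sign to -0.064. Without mitochondrial rRNA in the totals Polg2 changed sign to 0.13, Ssbp1 to 0.34 and Rrm2b to 0.16. The ratio of Polg2 to Polg was -0.083 without the length correction and ranged from -0.40 to -0.079 with 1 library left out. The ratio of Ssbp1 to Polg changed sign to 0.13 without the length correction, and ranged from -0.19 to 0.027 with 1 library left out. With 1 library left out the members numbered 3 to 4 lower and 1 higher, and all genes called 5549 to 7022.

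Libraries of the same replicate number did not deviate together (correlations of -0.0136, -0.0436, -0.0735 and 0.0723), so they share only a number. With the replicate block 0 members were called higher and 3 lower, Tk2 being 0.43 (DESeq2, adjusted p = 0.0957), and 5525 genes were called in all. In the exact test of the ratios within replicate numbers no adjusted p could pass, and the differences were the same. Tymp had few counts, and its 95% interval of the ratio ran from 0.886 to 4.64, so that at this depth neither a rise nor the lack of one was shown.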
